A study of Homo sapiens with 24 samples.

Results

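H9 cells labelled naive were compared with H9 cells labelled primed, in 3 libraries each, out of 24 libraries in the series. H9 is an established human embryonic stem cell line, and polyadenylated RNA was sequenced. Every gene that passed a filter on low counts was taken, which left 15761 of the 60671 genes listed. The labels name only the line and the state for these 6 libraries: no guide, knockdown or drug is given for either group, and StemFlex medium is the maintenance medium stated for all hPSCs of the series. The medium that set and held the naive state was not given in the sources used here. Where a second line was needed, 3 naive and 3 primed libraries of H1, another established embryonic stem cell line, were used. Those cells carried a nontargeting guide, and the labels give doxycycline for both H1 groups. Nothing in the labels tells whether replicates come from separate cultures. The p-values therefore reflect the spread among these 6 samples alone, and that spread may be technical.

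Human pluripotent cells are held in culture in at least a pair of states. Naive cells resemble the epiblast before implantation. They express KLF factors and TFAP2C, tolerate low ERK signalling and carry little DNA methylation. Primed cells resemble the epiblast after implantation, depend on FGF and activin, and express ZIC, OTX2 and SALL factors that prepare lineage choice. POU5F1, SOX2 and NANOG are shared by both.

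Total counts ran from 9429361 to 15504896 in the primed and from 9130659 to 11397306 in the naive-labelled libraries, with 23313 to 24957 genes detected per library. Levels below are CPM, counts relative to library size after scaling by TMM, a method that sets most genes equal between libraries. They are given library by library in the order of the replicate numbers, or as the mean ± SD of 3. A change is the log2 of naive-labelled over primed with its SE, and a gene is called where the adjusted p of edgeR's quasi-likelihood test lies under 0.05. The wording rose or fell is kept for called genes and means higher or lower in the naive-labelled cells. Of the genes tested, 8119 were called (51.5%), 4009 higher (25.4%) and 4110 lower (26.1%). At 2-fold or more, 1243 rose (7.89%) and 1564 fell (9.92%). In 9087 genes (57.7%) the 3 libraries of a group all lay beyond the 3 of the other. The median change over all genes tested was 0.0043. These shares are the background against which each list is read: where a list of genes is called as often as this, the count says nothing particular about it. How reads were shared among near-identical genes, and whether strand was used in counting, was not given in the sources used here. Levels of POU5F1, NANOG, PGK1, LDHA, PKM, the HLA and IFITM genes and mitochondrial genes, which have close copies, and of genes that overlap a neighbour are uncertain for that reason.

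**Figure D1:**
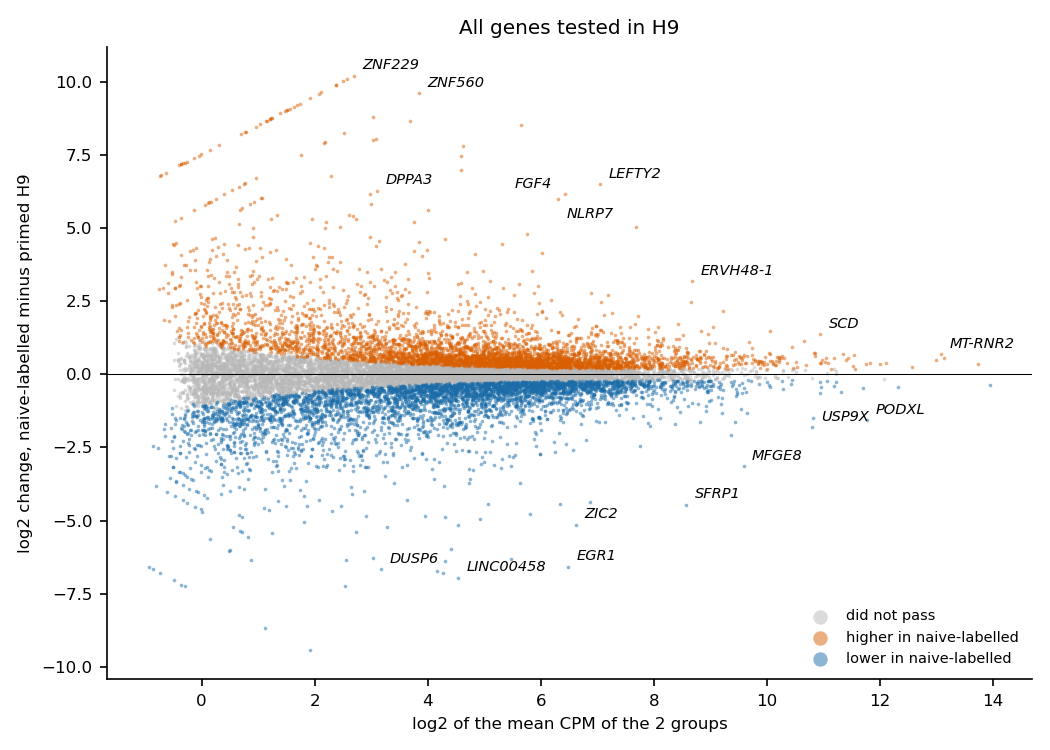
Log2 change, naive-labelled minus primed H9, against the log2 of the mean CPM of both groups, for the 15761 genes tested. Each point is a gene, coloured by whether it passed the test, and the straight streaks at the upper and lower left are genes with 0 to 3 counts in a group, whose fitted change depends on the prior count and is no bound. LEFTY2, FGF4 and NLRP7 stand at the top among genes of middle level, and EGR1, ZIC2 and SFRP1 at the bottom.

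The naive list was higher almost throughout, although several of the most specific naive markers were at or near 0. Of its 29 genes 20 passed the filter, and of these 19 rose and 0 fell, with a median change of 2.35. The summed level of all 29 was 1419 to 1453 CPM in the naive-labelled libraries and 597 to 627 in the primed ones. The 9 that did not pass the filter had few counts in all 6 libraries. DPPA3, a maternal factor that keeps DNA methylation away, was at 17.7, 14.8 and 18.5 CPM in the naive-labelled libraries and 0.191, 0.104 and 0.309 in the primed ones (log2 6.28 ± 0.29; edgeR adjusted p = 2.01e-12). Each naive-labelled library was above every primed library, in which the transcript was barely detected. DPPA5, an RNA-binding protein of early embryos, rose 11.03-fold, from 2.60 ± 0.429 to 29.3 ± 3.10 CPM. NLRP7, a maternal-effect protein linked to imprinting, was at 155, 159 and 156 CPM in the naive-labelled libraries and 2.29, 2.40 and 2.63 in the primed ones (log2 5.999 ± 0.13; edgeR adjusted p = 1.4e-17). The naive-labelled libraries differed from each other by far less than they did from the primed ones. DNMT3L, the cofactor of the de novo methyltransferases that marks naive human cells, rose from 0.318 ± 0.0663 to 12.9 ± 1.95 CPM. Among the transcription factors, KLF4 was at 17.7, 19.04 and 17.3 CPM in the naive-labelled libraries and 4.70, 2.72 and 5.18 in the primed ones, a 4.18-fold rise. KLF5 rose 6.12-fold, from 2.17 ± 0.333 to 13.1 ± 2.24 CPM. TFCP2L1, which acts with the KLF factors, rose 2.75-fold to 22.1 ± 4.396 CPM, and its groups did not overlap.

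The check of the naive label was mixed. KLF17, a factor specific to human naive cells and the epiblast before implantation, had 0, 1 and 1 counts in the naive-labelled H9 libraries and 0 in each primed library, while the naive H1 libraries held 124, 137 and 91. TBX3 had 6, 8 and 20 counts against 1119, 1057 and 829 in naive H1. ARGFX, a homeobox gene of the early embryo, had 1, 0 and 0 counts in naive-labelled H9 and 2, 0 and 0 in primed H9. The H1 libraries were of like depth. SUSD2, a surface protein used to sort naive cells, was at 19.8, 25.2 and 21.4 CPM in the naive-labelled libraries and 8.57, 9.61 and 12.4 in the primed ones (log2 1.11 ± 0.16; edgeR adjusted p = 9.33e-06). It was higher in every naive-labelled library, and its change in H1 was log2 4.24 ± 0.10, a difference between the lines of −3.14 ± 0.19 (edgeR adjusted p = 1.46e-14). ST6GAL1, a sialyltransferase of naive cells, was the tested member that did not pass, at 274 ± 3.73 CPM against 289 ± 13.7. Some cells of a mixed culture being naive and all cells being naive in part cannot be told apart in bulk RNA, and fewer cells of a type cannot be told apart from less RNA per cell. The libraries are therefore called naive-labelled throughout.

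**Figure D2:**
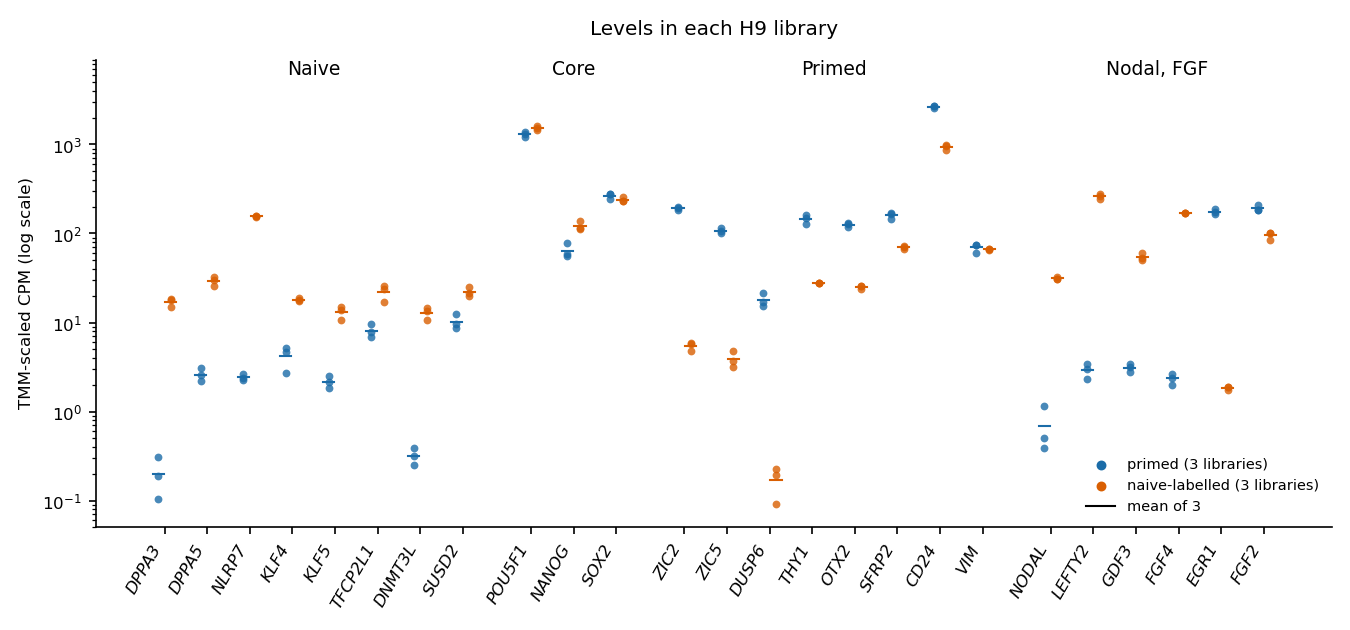
CPM on a log scale in each of the 3 primed and 3 naive-labelled H9 libraries for genes of the naive, core, primed and Nodal and FGF lists. Points are libraries and bars are means of 3. The groups lie apart for most naive and primed genes shown, SOX2 and VIM overlap, and DPPA3, DNMT3L and DUSP6 fall under 1 CPM in a state.

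Nearly all core factors were called, with changes in both directions. Of 13 core pluripotency genes 5 rose and 7 fell, with a median of −0.24 and a range from −0.80 to 2.40. SOX2 was at 229.7, 258 and 232 CPM in the naive-labelled libraries and 245, 275 and 279 in the primed ones (edgeR adjusted p = 0.154), and its groups overlapped. It passed as lower with total-count scaling (edgeR adjusted p = 0.0444) and with the length trend removed (0.0126). POU5F1, which encodes OCT4, rose by log2 0.22 ± 0.08, from 1306 ± 95.8 to 1523 ± 74.8 CPM (edgeR adjusted p = 0.0254). It no longer passed with total-count scaling (adjusted p = 0.103), with the length trend removed (0.110) and without naive replicate 1 or 2 or primed replicate 2 (0.0652 to 0.119). NANOG, the homeobox factor that guards self-renewal, was at 115, 112 and 137 CPM in the naive-labelled libraries and 56.0, 77.2 and 59.1 in the primed ones (log2 0.93 ± 0.12; edgeR adjusted p = 2.02e-06), with no overlap. DPPA2 and DPPA4, partners that bind chromatin together, rose by log2 1.67 and 0.49. UTF1, a chromatin-bound factor of pluripotent cells named after its value was seen, had the largest change of the list at low levels, from 0.471 ± 0.245 to 2.71 ± 1.48 CPM (log2 2.40 ± 0.47). ZFP42, also called REX1, fell by 0.28 on the log2 scale, a call lost without naive replicate 2 (adjusted p = 0.0649). Per kilobase of gene, POU5F1 was at 528 RPKM, SOX2 at 95.5 and NANOG at 22.5 in the naive-labelled cells, in the same order as in the primed cells. The 7 lower calls became 3 without naive replicate 1 or 2 and 4 without primed replicate 2.

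The primed list moved the other way. Of 20 genes 18 fell and 1 rose, with a median of −1.54, and the summed level was 3695 to 4007 CPM in the naive-labelled libraries and 9898 to 10913 in the primed ones. ZIC2, a zinc finger factor of the epiblast after implantation and of neural ectoderm and a target of knockdown elsewhere in the series, was at 4.80, 5.82 and 5.76 CPM in the naive-labelled libraries and 184, 193 and 199.8 in the primed ones (log2 −5.14 ± 0.12; edgeR adjusted p = 5.37e-17). ZIC5, its neighbour on chromosome 13, was at 3.17, 3.70 and 4.80 CPM in the naive-labelled libraries and 108, 115 and 100.5 in the primed ones (log2 −4.79 ± 0.14). Both were low in every naive-labelled library, and no primed library came near them. ZIC2 lies at 99981772 to 99986773 and ZIC5 at 99962964 to 99971909 (GRCh38). OTX2, a homeobox factor of the primed state and the forebrain, fell 4.97-fold, from 125 ± 6.93 to 25.1 ± 1.23 CPM. THY1, the surface antigen CD90 used to mark primed cells, fell 5.21-fold to 27.9 ± 0.151 CPM. SFRP2, a secreted WNT inhibitor, fell 2.30-fold and was still detected at 70.1, 67.8 and 72.2 CPM. CD24, a surface glycoprotein of primed cells, fell 2.84-fold, and PODXL, a sialomucin of stem cell surfaces, fell 2.95-fold. VIM, the mesenchymal intermediate filament often higher in primed cells, was at 67.0, 67.8 and 65.6 CPM in the naive-labelled libraries and 74.6, 75.1 and 60.1 in the primed ones and did not pass (edgeR adjusted p = 0.618). The other study targets were nearer to equal. ZNF8, a KRAB-type zinc finger, fell by 0.89 on the log2 scale, from 35.8 ± 9.76 to 19.2 ± 2.11 CPM. CARHSP1, a cold shock domain RNA-binding protein, was at 111 ± 4.23 CPM against 125 ± 7.09 (edgeR adjusted p = 0.0948). It passed with total-count scaling (0.0250) and with the GC trend removed (0.0187).

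In the Nodal and activin pathway, whose ligands signal through ACVR1B and SMAD2/3 to hold pluripotency, several ligands and feedback inhibitors rose together. Of 15 tested genes 9 rose and 5 fell, with a median of 0.99. The lower calls fell to 3 without naive replicate 1 or 2 or primed replicate 2. The genes named below are among those that rose, and the largest fall was log2 −0.81. The summed level of all 16 listed genes overlapped, at 1568 to 1707 CPM in the naive-labelled and 1342 to 1656 in the primed libraries. In H1 the same 15 genes gave 12 higher and 1 lower, against backgrounds of 35.0% and 36.1%. NODAL, the ligand, was at 32.8, 30.7 and 30.6 CPM in the naive-labelled libraries and 0.508, 1.15 and 0.387 in the primed ones (log2 5.61 ± 0.23; edgeR adjusted p = 3.32e-13). LEFTY2, a secreted Nodal antagonist, was at 266, 278 and 243 CPM in the naive-labelled libraries and 2.35, 3.03 and 3.40 in the primed ones (log2 6.50 ± 0.14; edgeR adjusted p = 1.4e-17). For both, the lowest naive-labelled library stood far above the highest primed one. LEFTY1, the second antagonist, lies next to LEFTY2 on chromosome 1 (225886282 to 225911382 and 225936598 to 225941489, GRCh38) and rose 23.2-fold, from 1.16 ± 0.226 to 27.5 ± 0.28 CPM. GDF3, a related ligand, rose 17.5-fold to 54.3 ± 5.23 CPM. GDF3 is a neighbour of DPPA3 on chromosome 12 (7689782 to 7695776 and 7711454 to 7717559). CER1, an inhibitor of Nodal, BMP and WNT, was at 8.15, 6.83 and 7.87 CPM in the naive-labelled libraries and 0.445, 0 and 0 in the primed ones (log2 5.32 ± 0.46). ACVR1B, the type I receptor, rose 2.07-fold, from 51.4, 52.5 and 49.2 to 106, 107 and 104 CPM, with no overlap.

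FGF ligands and the readouts of ERK signalling split. Of 21 FGF and ERK genes 8 rose and 10 fell, against 25.4% and 26.1% over all genes, and the list's median was −0.12. Its extremes lay among the largest changes of the comparison. FGF4, the ligand of the early epiblast, was at 169.6, 168 and 172 CPM in the naive-labelled libraries and 2.67, 2.40 and 2.01 in the primed ones (log2 6.15 ± 0.13; edgeR adjusted p = 1.4e-17). FGF2, the ligand on which primed cells depend, was at 101, 85.1 and 100.002 CPM in the naive-labelled libraries and 185, 209 and 181 in the primed ones (log2 −1.01 ± 0.09). The ligands thus moved in opposite directions, each without overlap. EGR1, an immediate early target of ERK, was at 1.90, 1.90 and 1.73 CPM in the naive-labelled libraries and 174, 167 and 188 in the primed ones (log2 −6.57 ± 0.14; edgeR adjusted p = 1.4e-17). DUSP6, the phosphatase that switches ERK off and is itself an ERK target, was at 0.0905, 0.224 and 0.192 CPM in the naive-labelled libraries and 17.1, 21.5 and 15.3 in the primed ones (log2 −6.67 ± 0.33). Both were low in every naive-labelled library, and no primed library overlapped them. SPRY4, a feedback inhibitor, fell less, 3.10-fold, from 59.1 ± 0.56 to 19.1 ± 2.40 CPM. ETV4, an ETS factor induced by FGF, rose from 42.2 ± 3.07 to 59.2 ± 4.98 CPM (log2 0.49 ± 0.10; edgeR adjusted p = 0.000675). Among feedback genes named here after their values were seen, DUSP5, SPRED2 and SPRY2 also rose (log2 1.14, 1.30 and 0.64), ETV5 fell (log2 −1.70), and SPRY1 and IL17RD did not pass (log2 −0.12 and −0.11). In H1 the same 21 genes gave 5 higher and 16 lower with a median of −2.42, against backgrounds of 35.0% higher and 36.1% lower. The state changes differed between the lines in 19 of the 21 (background 49.9%). EGR1 fell in H1 too, by 6.17 on the log2 scale, and the difference of −0.41 ± 0.35 did not pass (edgeR adjusted p = 0.38). SPRY4 fell from 172 ± 4.02 CPM to 0.0918 ± 0.0854 in H1, and its fitted difference between the lines was 9.07 ± 0.28 (edgeR adjusted p = 1.31e-21). Naive H1 held so few counts of SPRY4 that the size of this fitted value depends on the prior count and is no bound.

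**Figure D3:**
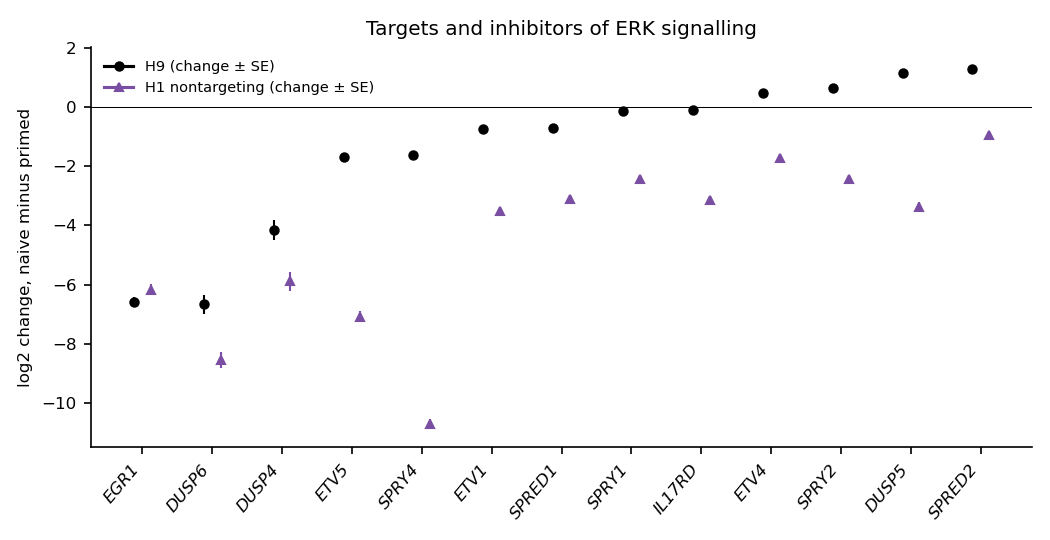
Log2 change, naive minus primed, with its SE, for 13 targets and inhibitors of ERK signalling in H9 (circles) and in H1 with a nontargeting guide (triangles). EGR1 lies at about the same depth in both lines, and most of the others lie lower in H1 than in H9, SPRY4 by log2 9.07.

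WNT components of the same family moved in opposite directions. Of 18 tested genes 7 rose and 10 fell, with a median of −0.66. SFRP1, a secreted inhibitor, was at 32.4, 31.6 and 35.1 CPM in the naive-labelled libraries and 690.2, 752 and 737 in the primed ones (log2 −4.46 ± 0.09; edgeR adjusted p = 1.4e-17), and no library of a group approached the other group. Of the TCF and LEF factors, which carry the signal to DNA, TCF7 rose 3.26-fold to 52.9 ± 0.927 CPM and LEF1 rose 8.14-fold to 6.02 ± 0.358 CPM. TCF7L1, the family member that represses, fell 3.10-fold, from 197 ± 23.9 to 63.8 ± 3.33 CPM. AXIN2, a feedback target, was at 60.2, 55.3 and 58.5 CPM in the naive-labelled libraries and 28.5, 27.4 and 30.1 in the primed ones, a 2.02-fold rise. Among receptors FZD5 rose 2.65-fold and FZD7 fell 1.98-fold. In the BMP list 6 of 15 rose and 3 fell, with a median of 0.28. BMP4, a ligand of the epiblast and amnion, was at 73.3, 73.4 and 68.1 CPM in the naive-labelled libraries and 9.53, 9.40 and 8.97 in the primed ones (log2 2.94 ± 0.12; edgeR adjusted p = 1.74e-13). BMP2, its close relative, moved oppositely, from 6.43 ± 0.225 to 1.40 ± 0.524 CPM. The SMAD1/5 target ID1 overlapped between the groups and did not pass (log2 0.03; edgeR adjusted p = 0.842), while ID3 rose 2.05-fold. In the LIF and STAT3 list 5 of 9 rose and 2 fell, a count of 1 without naive replicate 1 or 2 or primed replicate 2. STAT3, the factor that carries LIF signals in mouse naive cells, was at 263, 281 and 274 CPM in the naive-labelled libraries and 127, 129 and 129.9 in the primed ones (log2 1.08 ± 0.08; edgeR adjusted p = 1.78e-09). Its receptor chain IL6ST rose 1.83-fold and LIFR fell 1.99-fold. SOCS3, its feedback target, did not pass (log2 0.29; edgeR adjusted p = 0.105), and passed without primed replicate 3 (log2 0.45; adjusted p = 0.0177).

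Targets of YAP and TEAD, which report cell spreading and Hippo signalling, fell. Of 13 tested genes 9 fell and 1 rose, with a median of −1.09. YAP1 itself did not pass (log2 0.01; edgeR adjusted p = 0.961), nor did TEAD4, its partner in the trophectoderm (log2 −0.01). CCN1, a secreted matrix protein and classic target, was at 23.9, 22.1 and 16.3 CPM in the naive-labelled libraries and 141, 128 and 127 in the primed ones (log2 −2.67 ± 0.12; edgeR adjusted p = 1.48e-12). CCN2, of the same family, fell 4.02-fold to 31.8 ± 1.88 CPM. AJUBA and AMOTL2, junction proteins that act on the pathway, fell 13.1-fold and 9.15-fold, each without overlap. The TAZ gene WWTR1 was the member that rose (log2 1.32), named after its value was seen. In H1 the list gave 5 higher and 6 lower, with a median of −0.03, against backgrounds of 35.0% higher and 36.1% lower. State changes differed between the lines in 12 of 13 genes (background 49.9%). AMOTL2 showed a difference of −3.17 ± 0.15 and CCN2 of −2.39 ± 0.12 (edgeR adjusted p = 3.31e-17 and 6.59e-17). In the list of epithelial and mesenchymal genes 8 of 15 rose and 4 fell, with a median of 0.27. CDH1, E-cadherin, was at 724, 745 and 816 CPM in the naive-labelled libraries and 463, 520.1 and 492 in the primed ones (log2 0.63 ± 0.08; edgeR adjusted p = 2.71e-06), and EPCAM rose 1.87-fold. CDH2, N-cadherin, fell 2.67-fold. FN1, fibronectin, rose 1.40-fold.

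DNA methylation genes all passed, 6 higher and 8 lower of 14, with a median of −0.46. The higher ones include DPPA3 and DNMT3L, which the naive list also holds. DNMT3B, the main de novo methyltransferase of primed cells, was at 1628, 1745 and 1697 CPM in the naive-labelled libraries and 2224, 2276 and 2357 in the primed ones (log2 −0.44 ± 0.07; edgeR adjusted p = 6.18e-05), a fall of 1.35-fold. DNMT1, which copies methylation, fell 1.41-fold, and UHRF1, its guide to DNA, fell 1.75-fold, with no overlap in either. DNMT3A rose 1.26-fold. TET1, which oxidises methylcytosine, rose from 110.0 ± 19.6 to 183 ± 26.1 CPM, and TET2 fell from 6.93 ± 0.592 to 2.65 ± 0.223 CPM. No methylation was measured in these libraries. Imprinted genes, expressed from the copy of a given parent and silenced by methylation on the other, were called 8 higher and 8 lower of 19 tested. The lower calls were 5 without naive replicate 1 or 3. The genes that rose included several at almost no counts in primed cells. NDN was at 3.80, 2.58 and 2.88 CPM in the naive-labelled libraries and 0.191, 0 and 0 in the primed ones, 3 counts in all in primed cells. MAGEL2, its neighbour on chromosome 15, named after its values were seen, was at 0.996, 1.46 and 1.15 CPM in the naive-labelled libraries and 0, 0 and 0 in the primed ones, and SNRPN in the same imprinted region at 2.35, 2.35 and 3.26 CPM in the naive-labelled libraries and 0.826, 0.209 and 0.155 in the primed ones. In H1 NDN, MAGEL2 and SNRPN changed by log2 −1.26 ± 0.13, −1.17 ± 0.20 and −0.71 ± 0.05, and the differences between the lines were 6.38 ± 0.52, 7.88 ± 0.87 and 3.26 ± 0.35 (edgeR adjusted p = 1.23e-11, 1.27e-08 and 3.77e-09). For NDN and MAGEL2 the size of the fitted difference depends on the prior count, since primed H9 held 3 and 0 counts, and is no bound. H19, the maternally expressed long RNA, rose from 0.819 ± 0.118 to 5.28 ± 0.278 CPM. ZDBF2, an imprinted zinc finger gene, fell 2.46-fold. Allele-specific expression was not measured.

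Genes of the silencing machinery were called about as often as all genes. In the KAP1 and HUSH list, whose complexes lay down histone H3 lysine methylation on repeats, 1 of 11 rose and 4 fell. TRIM28, which is KAP1, and SETDB1, its methyltransferase, did not pass (log2 0.14 and −0.16; edgeR adjusted p = 0.18 and 0.193). CBX5, the heterochromatin protein HP1 alpha, fell 2.00-fold, from 584 ± 115 to 292 ± 39.6 CPM. Of 15 Polycomb genes 1 rose and 6 fell. EZH2, the methyltransferase subunit, fell 1.24-fold (edgeR adjusted p = 0.0133), a call lost without naive replicate 3 (0.0696). CBX2, a reader subunit, fell 1.65-fold. JARID2 and SUZ12 did not pass (log2 0.18 and −0.09), and in H1 JARID2 fell by 2.04 on the log2 scale (difference 2.20 ± 0.10; edgeR adjusted p = 6.56e-18). In H9 JARID2 passed as higher with all 4 groups in the fit (edgeR adjusted p = 0.0257) and with the length trend removed (0.0219). Maternal-effect genes, products of the oocyte that act in the early embryo, gave 5 higher and 1 lower of 6 tested. The higher ones include NLRP7 and KHDC3L, which the naive list also holds. NLRP2, whose gene overlaps that of NLRP7 on chromosome 19, was at 243, 258 and 247 CPM in the naive-labelled libraries and 59.3, 60.9 and 54.3 in the primed ones. TLE6, a subunit of the subcortical maternal complex, rose 6.86-fold to 18.0 ± 1.17 CPM, and KHDC3L of the same complex was at 1.81, 3.70 and 1.54 CPM in the naive-labelled libraries and 0.254, 0 and 0 in the primed ones. Transcripts of human endogenous retroviruses and pluripotency-linked long RNAs split, 4 higher and 3 lower of 9. ERVH48-1, which encodes the retroviral protein suppressyn, was at 764, 744 and 709.7 CPM in the naive-labelled libraries and 86.7, 78.7 and 77.5 in the primed ones (log2 3.19 ± 0.09; edgeR adjusted p = 8.22e-16). LINC01108 rose 27.7-fold to 104 ± 6.51 CPM. LINC00458 was at 0.181, 0.336 and 0.576 CPM in the naive-labelled libraries and 50.9, 46.7 and 41.0 in the primed ones and fell by 6.95 on the log2 scale. ESRG, a primate long RNA driven by a retroviral repeat, did not pass (log2 −0.12). It passed as lower with total-count scaling (edgeR adjusted p = 0.0395) and with the length trend removed (0.0434).

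Transcripts of glycolysis and respiration were mostly higher. Of 20 glycolysis genes 15 rose and 2 fell, with a median of 0.50, and the summed level was 17937 to 18531 CPM in the naive-labelled libraries and 12019.5 to 12639.6 in the primed ones. SLC16A3, which exports lactate, was at 66.9, 83.1 and 61.2 CPM in the naive-labelled libraries and 12.5, 13.8 and 18.9 in the primed ones (log2 2.22 ± 0.15; edgeR adjusted p = 3.75e-10). PGK1, a glycolytic kinase, rose 2.18-fold, from 1011 ± 53.1 to 2204 ± 78.1 CPM, and ALDOC, an aldolase, rose 2.46-fold. LDHA, which makes lactate, rose 1.65-fold, PKM, pyruvate kinase, 1.30-fold, and the glucose carriers SLC2A1 and SLC2A3 1.37-fold and 1.34-fold. HK2, hexokinase, did not pass (log2 0.13). The same list in H1 gave 9 higher and 11 lower with a median of −0.15, against backgrounds of 35.0% higher and 36.1% lower. Between the lines 18 of 20 changes differed (background 49.9%). Of 26 tested nuclear genes of the respiratory chain 21 rose and 1 fell, with a median of 0.49. NDUFV1, a complex I subunit, was at 228, 249 and 212 CPM in the naive-labelled libraries and 89.9, 78.4 and 101 in the primed ones, a 2.55-fold rise. ATP5MC1, of the ATP synthase ring, rose 2.51-fold, and COX4I1, of complex IV, 1.74-fold. The 13 protein-coding mitochondrial genes gave 12 higher and 0 lower, with a median of 0.38. MT-ND1, of complex I, was at 3253, 3262 and 3083 CPM in the naive-labelled libraries and 1969, 2106 and 1898 in the primed ones, and MT-CO1, of complex IV, rose 1.27-fold. With the trend of change with gene length removed, 7 of the 13 rose. These genes are short, and across all genes tested the change correlated with gene length at a Spearman rho of −0.18. Methyl and folate-cycle genes gave 5 higher and 3 lower of 12. MAT2A, which makes the methyl donor SAM, fell 1.91-fold, from 239 ± 12.4 to 125 ± 8.82 CPM, and AHCY, which clears its product, fell 1.45-fold. MTHFD2 and GLDC, which feed the folate cycle in mitochondria, rose 1.43-fold and 1.47-fold.

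Cell cycle regulators gave 4 higher and 7 lower of 14. CDKN1A, the inhibitor p21, was at 27.6, 28.6 and 27.9 CPM in the naive-labelled libraries and 10.7, 8.99 and 10.4 in the primed ones, a 2.78-fold rise. CCND1, cyclin D1, fell 2.60-fold, from 154 ± 15.2 to 59.0 ± 1.45 CPM. MYC, a growth factor-induced transcription factor, was at 23.0, 23.4 and 23.2 CPM in the naive-labelled libraries and 48.2, 45.9 and 52.3 in the primed ones, a 2.10-fold fall, and MYCN fell 1.59-fold. CCNE1 and CCND2 did not pass. Of 12 MHC class I and IFITM genes 5 rose and 3 fell. IFITM1, an antiviral membrane protein of stem cells, was at 1014, 1002 and 913 CPM in the naive-labelled libraries and 238, 205 and 208 in the primed ones (log2 2.17 ± 0.09; edgeR adjusted p = 2.65e-13). IFITM3, its neighbour on chromosome 11, rose 3.09-fold. HLA-B fell 3.28-fold and B2M, the light chain of class I, rose 1.38-fold. Among SOX factors 2 of 11 rose and 8 fell. SOX15, a factor of naive cells, was at 36.9, 43.9 and 32.7 CPM in the naive-labelled libraries and 7.37, 8.15 and 10.05 in the primed ones, a 4.44-fold rise. SOX3, of the neural branch, fell 19.8-fold to 1.21 ± 0.422 CPM, SOX11 fell 2.11-fold and SOX9 fell 3.56-fold.

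**Figure D4:**
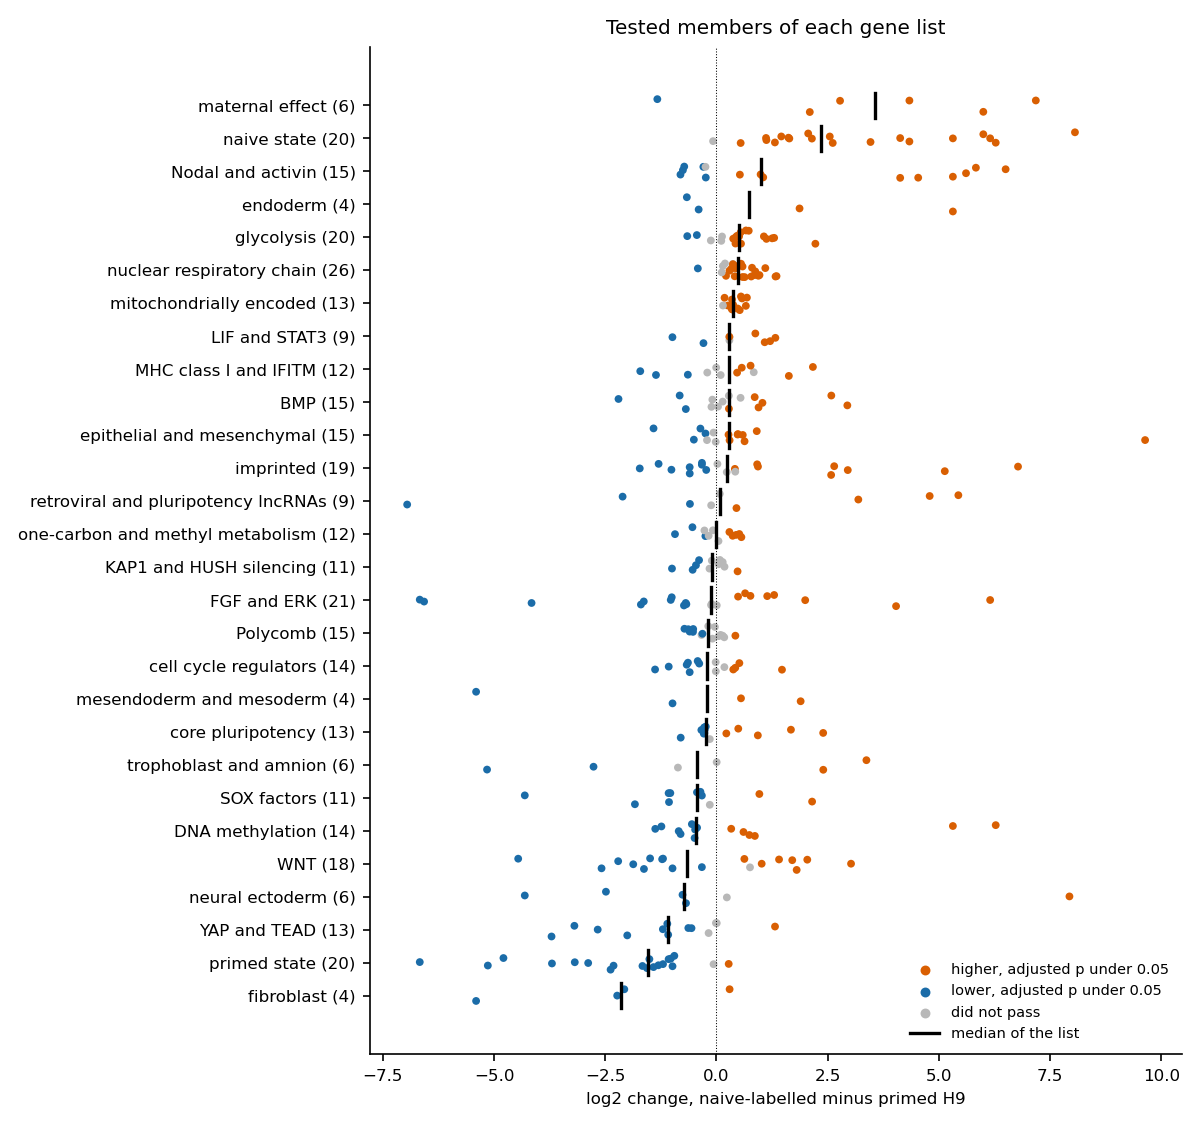
Log2 change, naive-labelled minus primed H9, of each tested member of 28 gene lists, with the number tested in brackets and lists ordered by median. Points are genes, coloured by the test, and black bars are medians. The naive and maternal-effect lists lie highest, and the primed and YAP and TEAD lists are among the lowest. Lists share genes, so the same gene can appear in several rows. The naive list shares NLRP7 and KHDC3L with the maternal-effect list and DPPA3 and DNMT3L with the DNA methylation list. It shares FGF4 with the FGF and ERK list. CER1 is an endoderm and a Nodal gene, and PDGFRB a mesendoderm and a fibroblast gene. The glycolysis, nuclear respiratory chain and mitochondrially encoded lists have medians to the right of 0. The one-carbon list has a median of −0.017.

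Many markers of other cell types were too low to be tested. None of the 12 genes of the 8-cell-like list, which marks embryos at genome activation, passed the filter: 7 had 0 counts in all 6 libraries, and ZSCAN4 had 0, 1 and 0 counts in the naive-labelled and 1, 2 and 0 in the primed libraries. Of 18 trophoblast and amnion markers 6 were tested, 2 higher and 2 lower, and the summed level of all 18 was 23.1 to 29.1 CPM in the naive-labelled libraries and 69.0 to 77.1 in the primed ones. GABRP, a receptor subunit of amnion, carried most of the primed level at 44.8, 43.5 and 46.8 CPM, against 0.905, 1.46 and 1.44. VGLL1, CGA and ELF5 had 0 counts in all 6 libraries. GATA3, a defining trophoblast factor, had 3, 4 and 3 counts in naive-labelled H9 and 207, 195 and 144 in naive H1. TFAP2A rose from 0.707 ± 0.294 to 3.90 ± 0.222 CPM. Of 12 endoderm markers 4 were tested, 2 higher and 2 lower, with a summed level of 171 to 189 CPM in the naive-labelled libraries and 214 to 266 in the primed ones, and GATA6 had 0 counts in all 6 libraries. The mesendoderm list summed to 51.7 to 66.2 CPM in the naive-labelled libraries and 107 to 118 in the primed ones, 4 of 8 were tested, and TBXT had 0 counts in each naive-labelled library. KDR carried most of both sums and fell from 93.9 ± 7.18 to 47.4 ± 6.73 CPM. MIXL1 rose from 0.842 ± 0.0829 to 3.12 ± 0.603 CPM. PDGFRB, a mesenchymal receptor, fell from 13.01 ± 0.188 to 0.309 ± 0.234 CPM. Neural ectoderm markers were at 251 to 276 CPM in the naive-labelled libraries and 429 to 489 in the primed ones, with 1 of 6 tested genes higher and 4 lower. The higher gene was PAX6, at 9.24, 9.75 and 8.25 CPM in the naive-labelled libraries and 1 count over the primed ones. LHX2 was at 0 in the naive-labelled libraries and had only 1, 1 and 2 counts in the primed ones. Of 11 fibroblast genes 4 were tested. COL1A1, a collagen chain, fell 4.70-fold, and COL1A2 rose by log2 0.30, a call lost without naive replicate 2 or primed replicate 1 (adjusted p = 0.0713 and 0.0506). DCN, LUM and FAP, the genes that define fibroblasts most sharply, had 0 counts in all 6 libraries. The part of other cells in the results above was not tested beyond these values.

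A set of genes was at or near 0 counts in primed H9 and expressed in naive-labelled H9. In primed H9, 26 genes had at most 3 counts over the 3 libraries and yet a mean of at least 5 CPM in the naive-labelled cells. The reverse held for 2 genes, DGKK, a diacylglycerol kinase on chromosome X, and the uncharacterised ENSG00000287492. Of the 26, 16 had 0 counts and 10 had 1 to 3 counts in primed H9, 21 are protein coding, 12 have a ZNF symbol or are antisense to such a gene, and 9 lie on chromosome 19. These genes were chosen by the values themselves, so their change is a description without a test. No gene had 4 to 6 counts in primed H9 and reached 5 CPM in the other state, and 9 with at most 3 counts lay at 4 to 5 CPM. The pattern shows in neighbours. ZNF528 and ZNF534 are KRAB-type zinc finger genes of the plus strand some distance apart on chromosome 19. ZNF560 is a further one, on the minus strand and far from both on that chromosome, with the highest naive-labelled level of the 26. RefSeq sequence of GRCh38.p14 holds the 250 bases before their starts, which are shown 5′ to 3′ in the direction of the gene with every CpG, the dinucleotide that DNA methyltransferases act on, in capitals. These windows are promoter sequence upstream of the annotated RefSeq start. The window of ZNF528 spans chr19:52397599-52397848 and also holds the first bases of ZNF528-AS1, a noncoding gene of the other strand, that of ZNF534 chr19:52428898-52429147 and that of ZNF560 chr19:9498617-9498866.
ZNF528: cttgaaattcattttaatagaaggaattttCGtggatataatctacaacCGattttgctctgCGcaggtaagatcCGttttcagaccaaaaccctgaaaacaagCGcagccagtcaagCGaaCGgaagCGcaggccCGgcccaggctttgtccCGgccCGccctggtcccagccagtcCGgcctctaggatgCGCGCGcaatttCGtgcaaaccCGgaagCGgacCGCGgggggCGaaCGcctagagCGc
ZNF534: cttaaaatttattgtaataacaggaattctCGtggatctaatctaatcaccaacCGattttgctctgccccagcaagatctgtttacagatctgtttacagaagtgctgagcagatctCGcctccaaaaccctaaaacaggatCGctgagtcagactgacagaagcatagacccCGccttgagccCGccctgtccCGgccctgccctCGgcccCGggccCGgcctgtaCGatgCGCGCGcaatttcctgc
ZNF560: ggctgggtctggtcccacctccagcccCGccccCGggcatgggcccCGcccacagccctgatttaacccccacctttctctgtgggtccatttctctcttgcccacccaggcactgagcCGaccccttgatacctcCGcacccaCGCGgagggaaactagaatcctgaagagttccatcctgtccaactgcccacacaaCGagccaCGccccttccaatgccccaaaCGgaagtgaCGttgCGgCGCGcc
The motif counted was CG, which reads the same on both strands. ZNF528 holds 23, ZNF534 14 and ZNF560 14, where the median of the 35116 promoter windows of this length in the RefSeq table is 11. At least 23 were found in 25.8% of those windows and at least 14 in 44.8%. Aligned with gaps, the windows of ZNF528 and ZNF534 matched at 174 of 203 aligned bases (85.7%). Those of ZNF528 and ZNF560 matched at 137 of 206 (66.5%), and those of ZNF534 and ZNF560 at 139 of 215 (64.7%). Gaps of 94, 88 and 70 bases are left out of these shares. The share that unrelated windows would give was not computed, so these shares stand without a background. Of the 26 genes 18 have an entry in the table, and PUS7L, HORMAD1 and ZNF471 are among those without.

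ZNF560 had 1 count in the 3 primed libraries and was at 28.3, 25.7 and 32.6 CPM in the naive-labelled ones, a ratio of 1110.3 (exact 95% counting interval 199 to 43904). ZNF528 had 2 counts in primed H9 and was at 25.0, 25.8 and 26.4 CPM. ZNF528-AS1, which starts 83 bases from it on the other strand, had 1 primed count and was at 18.5, 15.6 and 15.2 CPM. ZNF534 had 0 primed counts and was at 5.34, 4.48 and 5.95 CPM, at least 67.6-fold higher against a floor of 3 counts over the group. Ratios and bounds cover counting error only. The same held for further pairs of genes that start close together on opposite strands. ZNF667 and ZNF667-AS1 on chromosome 19 (56439325 to 56478065 and 56477250 to 56500666), which overlap by 815 bases at their starts, both had 0 primed counts and were at 12.6, 8.74 and 12.8 and 7.61, 7.28 and 7.87 CPM. IRAK4, a kinase of Toll-like receptor signalling, and PUS7L, a pseudouridine synthase, start 127 bases apart on chromosome 12. They had 1 and 2 primed counts and were at 8.51, 9.19 and 9.12 and 16.5, 14.002 and 18.4 CPM. CRYZ, a quinone reductase, had 0, and was at 5.70, 4.82 and 6.53 CPM. Its overlapping neighbour TYW3, a tRNA-modifying enzyme just outside the level set, had 1 primed count and 3.39 ± 1.30 CPM in the naive-labelled cells. Of the 26 genes, 7 have a tested opposite-strand neighbour that starts within 1000 bases. They form 3 pairs in which both are members, and CRYZ with TYW3. Reads of overlapping members cannot be assigned if strand was not used. The largest bounds were those of ZNF229 (at least 165-fold), ZNF595 (at least 151-fold), ZNF667 (at least 147-fold) and ATP6V0D2, a proton pump subunit (at least 132-fold), all with 0 primed counts. Over the 16 genes at 0 the bounds ran from 67.6-fold to 165-fold. Outside the zinc fingers, TWIST1, a mesenchymal transcription factor, was at 9.69, 8.07 and 8.25 CPM from 0 counts, and PAX6, an eye and forebrain factor, at 9.24, 9.75 and 8.25 from 1 count. HORMAD1 and MAGEB2, genes of the germline, were at 16.9, 15.5 and 18.1 and 10.2, 9.19 and 9.69 CPM from 2 and 3 counts. Primed H1 cells expressed many of these genes. Of the 26, 12 reached at least 1 CPM in each of the 3 primed H1 libraries, and 20 did so in each naive H1 library. PUS7L had a mean of 41.9 CPM and CRYZ of 32.1 in primed H1, where ZNF667 had 10.3 and ZNF595 21.3. ATP6V0D2, HORMAD1, HDGFL1, ZNF492 and ENSG00000248347 had 0 counts in primed H1. The state change differed between the lines in 21 of the 26, a count that the choice of genes by H9 values bears on. For the other 5, those at 0 in primed H1, the fit gave no usable estimate of the difference.

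**Figure D5:**
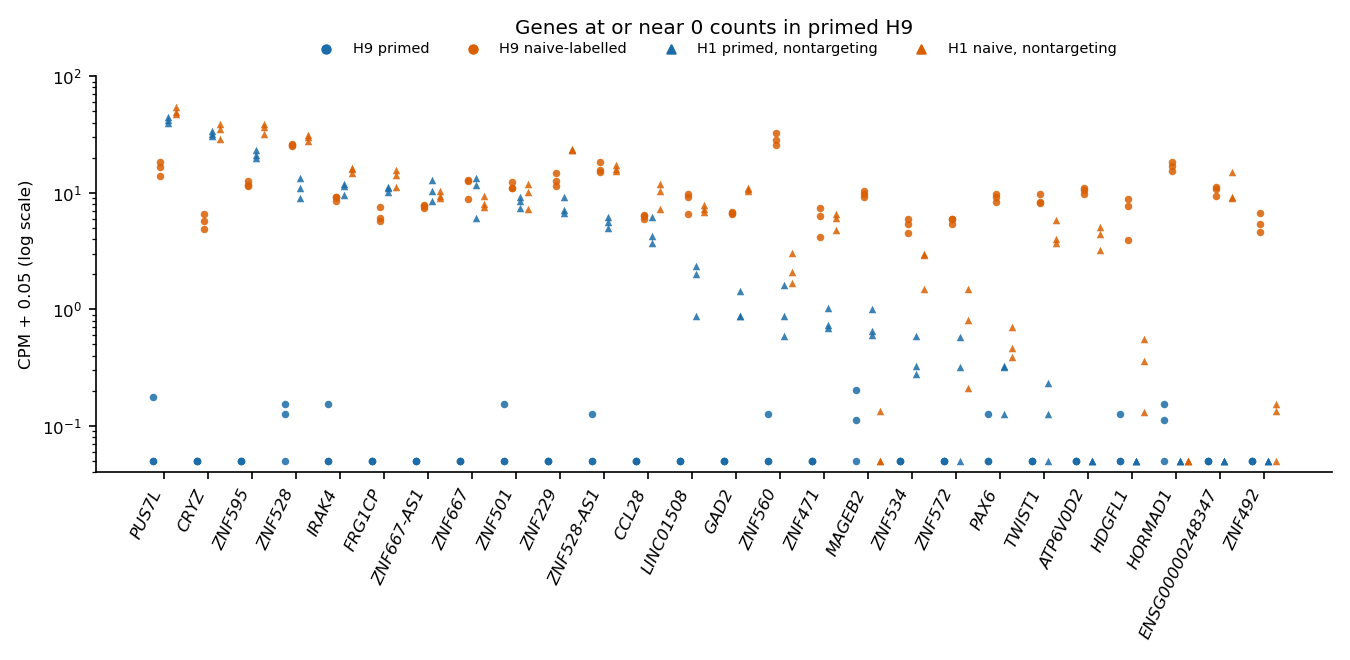
CPM plus 0.05 on a log scale of the 26 genes with at most 3 counts over the primed H9 libraries and at least 5 CPM on average in naive-labelled H9, ordered by their mean in primed H1. Circles are H9 and triangles H1 libraries with a nontargeting guide, blue primed and orange naive, and 0 counts sit at 0.05. Genes on the left are expressed in primed H1, and 5 near the right end, ATP6V0D2, HDGFL1, HORMAD1, ENSG00000248347 and ZNF492, sit at 0 there.

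By ratio, genes were ranked among called ones without overlap and with a mean of 5 CPM or more over the 6 libraries. The largest falls outside the lists included RAB17, a small GTPase of epithelial sorting. RAB17 was at 0.362, 0.448 and 0.192 CPM in the naive-labelled libraries and 35.7, 35.9 and 35.5 in the primed ones. FEZF1, a forebrain zinc finger repressor, was at 0.362, 0.784 and 0.288 CPM in the naive-labelled libraries and 38.3, 38.5 and 41.0 in the primed ones, and NPTX1, a secreted pentraxin, fell 79.8-fold, from 87.6 ± 8.32 to 1.10 ± 0.268 CPM. None of their naive-labelled libraries came near a primed one. DGKK fell from 11.5 ± 1.94 CPM to 2 counts over the 3 naive-labelled libraries. The long noncoding gene ENSG00000256969 was among the largest rises, at 86.8, 100.03 and 113 CPM in the naive-labelled libraries and 0.318, 0.209 and 0.232 in the primed ones (log2 8.52 ± 0.21; edgeR adjusted p = 1.52e-16). By CPM rather than ratio, SCD, the desaturase that makes monounsaturated fatty acids, was at 2706, 2803 and 2997 CPM in the naive-labelled libraries and 1033, 1199 and 1069 in the primed ones (log2 1.37 ± 0.08; edgeR adjusted p = 6.8e-11). USP9X, a deubiquitinase gene of chromosome X, was at 749.9, 750.3 and 893 CPM in the naive-labelled libraries and 2371, 3187 and 2777 in the primed ones, a 3.48-fold fall. ACTB, cytoplasmic actin, fell 1.34-fold, and EEF1A1, the elongation factor, fell 1.29-fold. The mitochondrial ribosomal RNA MT-RNR2 rose 1.61-fold. All were without overlap.

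Set beside the nontargeting H1 cells, the state change was called for fewer genes in H9, and most genes called in both lines changed in the same direction. In H1, 11289 of 15874 genes were called (71.1%). Replicates were less spread in H1, with a biological coefficient of variation of 6.13% against 9.67% in H9. A change of a given size was therefore called more easily in H1, and the numbers called do not compare the size of the change. Of 14730 genes tested in both lines 6060 were called in both, 4788 of them in the same direction (79.0%) and 1272 in opposite directions. The difference between the changes was called for 8551 of 17140 genes (49.9%), 4498 positive (26.2%) and 4053 negative (23.6%). In the naive list 15 of 19 changes differed, in both directions. SUSD2 and DNMT3L rose less in H9 than in H1, the latter by a difference of −3.01 ± 0.72, and DPPA3 and DPPA5 rose more (3.25 ± 0.46 and 2.81 ± 0.27). NLRP7 and TFCP2L1 had differences of 0.22 ± 0.18 and 0.05 ± 0.22, which did not pass (edgeR adjusted p = 0.329 and 0.867). In the primed list 12 of 20 differed. THY1 and SFRP2 fell by 9.59 and 9.97 on the log2 scale in H1, against 2.38 and 1.20 in H9, with differences of 7.20 ± 0.21 and 8.76 ± 0.20 (edgeR adjusted p = 1.85e-22 and 4.07e-25). OTX2 fell in H9 and rose in H1, by log2 0.97 ± 0.09. The line, the guide, doxycycline and the separate count table cannot be told apart in this comparison.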

How the data were processed

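Polyadenylated RNA of 3 naive-labelled and 3 primed H9 libraries was measured by sequencing of stranded libraries. The submitters' processing notes name HISAT2 and GRCh38. Aligner version, counting tool, annotation and strand setting were not given in the sources used here. Whole-number gene counts were deposited by the authors without normalization, in separate tables for H9 and H1. Gene length in bases, an other column of the H1 table, is as deposited by the authors. That table has 27 further columns that match no sample described here, which were not used.

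The 6 H9 libraries were fitted in R 4.3.3 with edgeR 4.0.16, after filterByExpr and TMM scaling, with the quasi-likelihood F test (2-sided) and Benjamini-Hochberg adjustment at 0.05. H1 was fitted alike, and a fit of all 12 libraries tested the difference between the state changes. The SE was derived from the F statistic, and the biological coefficient of variation was 9.67% in H9. Symbols matched 60401 of 60671 identifiers, and positions are from GENCODE 29. Folds against a group at 0 use a floor of 3 counts over the group.

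Named genes are the 3 study targets, the 10 largest rises, the 10 largest falls and the 5 largest CPM differences each way. Chosen key genes and up to 2 further called members of each of 30 lists were added. The largest rises and falls were taken among called genes without overlap and with a mean of 5 CPM or more over the 6 libraries. Other members named were picked after their values were seen. The name of 1 member of the primed list is not reported here. Members and lists were chosen with earlier results of these data known. Fits were tested on simulated data. Replicate pairs differed beyond sampling noise, at a chi-square per degree of freedom of 3.56 to 9.16, so each library counted as 1 sample. Alternatives were DESeq2 1.42.0, other scaling, filter and trend settings, a replicate block and leaving out each library.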

Additional observations from a re-analysis of the deposited data

Results flagged for a closer look

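For 27 of the 174 genes chosen by the naming rule the log2 change between states was called in both lines, in opposite directions in H9 and in H1, and the difference was called by edgeR's test of the difference itself (adjusted p of 8.64e-04 or less). ERVH48-1, the suppressyn gene, changed by log2 3.19 in H9 and −2.14 in H1, a difference of 5.32. TET2, a methylcytosine oxidase, changed by log2 −1.38 in H9 and 4.04 in H1, a difference of −5.42. ID3, a BMP target, changed by log2 1.03 in H9 and −3.99 in H1, a difference of 5.01. OTX2, a primed factor, changed by log2 −2.31 in H9 and 0.97 in H1, a difference of −3.29. The imprinted gene NDN changed by log2 5.13 in H9, where primed cells held 3 counts, and by −1.26 in H1, a difference of 6.38 whose size depends on the prior count. The long RNA LINC01108 changed by log2 4.79 in H9 and −0.62 in H1, a difference of 5.41. BMP2, a ligand, changed by log2 −2.20 in H9 and 2.67 in H1, a difference of −4.88.

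In H9 a rise and in H1 a fall were seen for the class I light chain B2M (0.46 and −2.07, difference 2.52), the FGF-induced factor ETV4 (0.49 and −1.74, difference 2.21) and the imprinted gene SNRPN (2.58 and −0.71, difference 3.26). The same held for TET1 (0.74 and −0.32, difference 1.06), the cytokine LIF (1.32 and −1.32, difference 2.64) and the core gene DPPA4 (0.49 and −0.11, difference 0.59). Genes of metabolism with that direction were SCD (1.37 in H9, −0.55 in H1, difference 1.91), ALDOC (1.30 in H9, −0.79 in H1, difference 2.08), SLC2A3 (0.43 in H9, −1.48 in H1, difference 1.90), SHMT2 (0.36 in H9, −1.20 in H1, difference 1.56), LDHA (0.73 in H9, −0.21 in H1, difference 0.93), PKM (0.38 in H9, −0.55 in H1, difference 0.91) and COX5A (0.39 in H9, −0.21 in H1, difference 0.59). The COX5A libraries of the H9 states overlapped, and its call in H9 was lost without naive replicate 1 (adjusted p = 0.0629) and with the length trend removed (0.0572). Mitochondrial genes with it were MT-RNR2 (0.68 in H9, −0.13 in H1, difference 0.80), MT-CO3 (0.48 in H9, −0.30 in H1, difference 0.77) and MT-CO1 (0.35 in H9, −0.28 in H1, difference 0.63).

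The opposite direction, a fall in H9 and a rise in H1, was seen for CCN2 (−2.01 in H9, 0.37 in H1, difference −2.39), FGF2 (−1.01 in H9, 0.70 in H1, difference −1.71), MAT2A (−0.93 in H9, 0.57 in H1, difference −1.51) and ZFP42 (−0.28 in H9, 0.13 in H1, difference −0.42). The line, the guide, doxycycline and the separate count tables cannot be told apart.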

How the results depend on the processing

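Of 174 named genes 162 kept their direction and their side of the threshold in H9 under every alternative. Higher and lower calls were 3803 and 3773 with DESeq2, 4071 and 4067 with DESeq2-type size factors, 3472 and 4682 with total counts alone, 4411 and 4333 with all 4 groups in the fit, 4482 and 4314 with the GC trend removed, 4189 and 4462 without a filter, and 3510 to 3880 and 3616 to 4020 without a library. Total counts alone moved the median of all genes by −0.06.

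The replicate numbers did not pair the libraries: deviations of same-numbered libraries correlated at 0.15, −0.12 and −0.11. Across numbers, naive-labelled replicate 2 with primed replicate 3 correlated at 0.16 and naive-labelled 3 with primed 2 at 0.20. The remaining pairs lay at −0.10 to −0.03. A pairing other than by number was not tested, and a block by number does not cover it. With the replicate number as a block, 3860 genes rose and 3943 fell, and none of the 174 named genes changed its call in H9.

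The difference between H9 and H1 for CER1 was −3.07, ran from −3.64 to 0.97 as single libraries were left out, and turned to 0.97 (adjusted p = 0.428) without primed H9 replicate 1, which holds every primed H9 count of the gene. Among list counts, mitochondrial genes went from 12 to 7 higher with the length trend removed, a setting added once the data had been seen. Core genes went from 7 to 3 or 4 lower, Nodal genes from 5 to 3, imprinted genes from 8 to 5 and one-carbon genes from 3 to 5 in single settings. Lists with 1 or 2 calls in a direction moved by 1 or 2. Low counts limit the genes under about 1 CPM.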

Other observations

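Changes were not spread evenly over chromosomes. On chromosome 19, 404 of 1195 tested genes rose (33.8%) and 168 fell (14.1%), with a median log2 change of 0.18. On chromosome X 213 of 609 rose (35.0%) and 145 fell (23.8%), with a median of 0.11. Chromosomes 18 and 13 lay on the other side, with medians of −0.20 and −0.16, and on chromosome 13 37 of 276 rose (13.4%) and 98 fell (35.5%).

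Zinc finger genes form the largest family of DNA-binding factors. Of 223 tested genes with a ZNF symbol on chromosome 19, 78 rose and 19 fell, with a median of 0.18. All 1195 tested genes of that chromosome gave 404 and 168, also with a median of 0.18. The median of its ZNF genes was thus that of the chromosome. All 440 ZNF genes in the genome gave 124 and 82 with a median of 0.017. Among gene types, processed pseudogenes, copies made from spliced transcripts, gave 98 higher (19.4%) and 35 lower (6.94%) of 504, with a median of 0.19. Antisense genes gave 74 higher (14.2%) and 110 lower (21.1%) of 522. Both types were called less often in each direction than all genes, of which 25.4% rose and 26.1% fell. These counts describe the same fit as the report and were looked at after the values were known.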
